A study of Mus musculus with 12 samples.

Results

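MiR-25, miR-32, miR-92a and miR-363 are microRNAs (miRNAs) that share one seed, the stretch near the 5′ end through which a miRNA pairs with its target messages. They were examined in pancreatic islets of male C57BL/6 offspring at an age of 2 to 3 months. Dams of the LP0.5 group ate a low-protein diet and dams of the Control group a control diet through pregnancy, and each group has 6 samples by the labels, all from hand-picked islets kept overnight in culture medium before RNA was isolated. The labels do not say whether a sample is 1 animal or a pool. TaqMan real-time PCR was run on a panel of 846 spots, of which 750 assayed miRNAs, and 566 of these spots, carrying 528 miRNA names, have a value. Members were chosen by name, and 4 of the 750 miRNA spots belong to the family. The names miR-25, miR-32 and miR-363 stand on the panel as such, while miR-92a is listed under its older name miR-92, so 3 of the 4 names match exactly. The family was chosen with the ratios given here already known, so its ratios are a description and no test was made on them.

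In the authors' deposited table a spot has at most 1 value, a linear ratio of L.05 (LP0.5) to Control by its heading. The table gives no spread over samples, so none of the ratios below has a replicate check, and how many of the samples share the direction of a ratio is not known. In the per-sample columns that could be matched to no label, the rows of miR-25, miR-32 and miR-363 looked very uneven on inspection, with a single column far from the others for miR-25. Whether 1 sample decides these ratios was not tested. By the heading, a value above 1 is a higher level in LP0.5 islets. That direction rests on the heading alone. The study is known for naming miR-199a-3p among the miRNAs raised in low-protein islets, whereas the authors' deposited table lists it at 0.422, so ratios are given here as above or below 1. A ratio is no level, and levels of the 4 miRNAs were not compared with each other. In RNA from whole islets, fewer cells of a type and less RNA per cell cannot be told apart.

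A miRNA guides the Argonaute protein to messages that match its seed, and these are then translated less or degraded. The family is best known from the miR-17/92a cluster and its paralogs miR-106b-25 and miR-106a-363, which promote cell proliferation and survival. The pro-apoptotic gene Bcl2l11 (Bim) is a well-studied target of the family's seed. In rat beta cells, miR-25 and miR-92a have been linked to control of insulin synthesis.

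The mature sequences show what the 4 members share and where they part. They are the mouse entries of RefSeq, build GRCm38.p6, with the seed (bases 2 to 8) in capitals. All 4 members and both other mouse miRNAs of this seed were matched by name. The panel names of the members carry no arm, so the arm that holds the seed was taken.
miR-25: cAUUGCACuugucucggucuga
miR-92a: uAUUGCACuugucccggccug
miR-363: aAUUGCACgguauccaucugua
miR-32: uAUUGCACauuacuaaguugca
miR-367: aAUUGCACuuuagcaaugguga
miR-92b: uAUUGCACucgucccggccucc
The seed AUUGCAC at bases 2 to 8 is held by 7 of 1738 mature mouse entries in the RefSeq table (0.403%), which carry 6 names, and these are the 6 printed here. MiR-25 and miR-92a are the closest members. Compared base by base from the 5′ end, they are the same at 18 of the first 21 bases, and at 11 of the 13 that follow the seed. MiR-363 and miR-32 have less in common with them beyond the seed: after it, miR-363 is the same as miR-25 at 1 of 13 bases and as miR-92a at 3, and miR-32 is the same as miR-25 at 5 of 13 and as miR-92a at 3. The share of G and C is 57.1% in miR-92a, 50% in miR-25, 40.9% in miR-363 and 31.8% in miR-32.

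The members come from separate genes. In GRCm38.p6, mature miR-25 lies at chr5:138165332-138165353 on the minus strand, within the bounds of Mcm7, the gene of a subunit of the replicative DNA helicase. Mature miR-32 lies alone at chr4:56895272-56895293 on the minus strand, within the bounds of the protein-coding gene Tmem245. MiR-363 lies at chrX:52741697-52741718 on the minus strand. The same mature miR-92a is encoded by both of its genes, Mir92-1 at chr14:115044476-115044496 on the plus strand and Mir92-2 at chrX:52741854-52741874 on the minus strand. The Mir92-1 and Mir92-2 hairpins are printed with the mature miR-92a in capitals, because they differ around it and not within it.
Mir92-1: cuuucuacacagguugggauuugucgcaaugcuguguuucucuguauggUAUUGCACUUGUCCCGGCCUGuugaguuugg
Mir92-2: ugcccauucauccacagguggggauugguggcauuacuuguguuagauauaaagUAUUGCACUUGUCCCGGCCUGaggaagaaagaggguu
An assay of the mature strand therefore cannot tell the chromosome 14 and the X-linked source of miR-92a apart, and its ratio is shown with both clusters. Whether both genes are active in these islets was not tested.

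Of the 4 members, 3 were listed well below 1 and 1 well above it. The authors' deposited table lists miR-25, the last miRNA of the miR-106b-25 cluster, at 0.329 (-1.60 on the log2 scale). It lists miR-363, the last miRNA of the X-linked cluster, at 0.411 (-1.28). MiR-92a, the last miRNA of the miR-17/92a cluster, stands at 0.46 (-1.12) in the authors' deposited table. The ratios of these 3 lie within 1.4-fold of each other. The authors' deposited table puts miR-32, the member outside the clusters, at 3.89 (1.96 on the log2 scale), 11.8-fold from miR-25. The family is thus split by direction although its seed is shared.

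The 4 assays belong to the same assay set (the A set, by the spot code), in which 304 miRNA spots have a ratio. The median ratio of those spots was 0.976, with the 25th percentile at 0.796 and the 75th at 1.19, so each member lay outside the middle part of its set. Counted from the lowest ratio, miR-25 ranked 18 of 304, miR-363 ranked 23 and miR-92a ranked 28. Counted from the highest, miR-32 ranked 15. The 3 members at least 1.5-fold below 1 stand beside 95 of 566 miRNA spots on the whole panel (16.8%) and 48 of 304 in the A set (15.8%). The 1 member at least 1.5-fold above 1 stands beside 105 of 566 on the panel (18.6%) and 40 of 304 in the A set (13.2%). These ratios were in view when the family was chosen, so nothing is read from the counts. The median log2 ratio of the 4 members was -1.20, against 0.01 over all 566 miRNA spots.

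**Figure D1:**
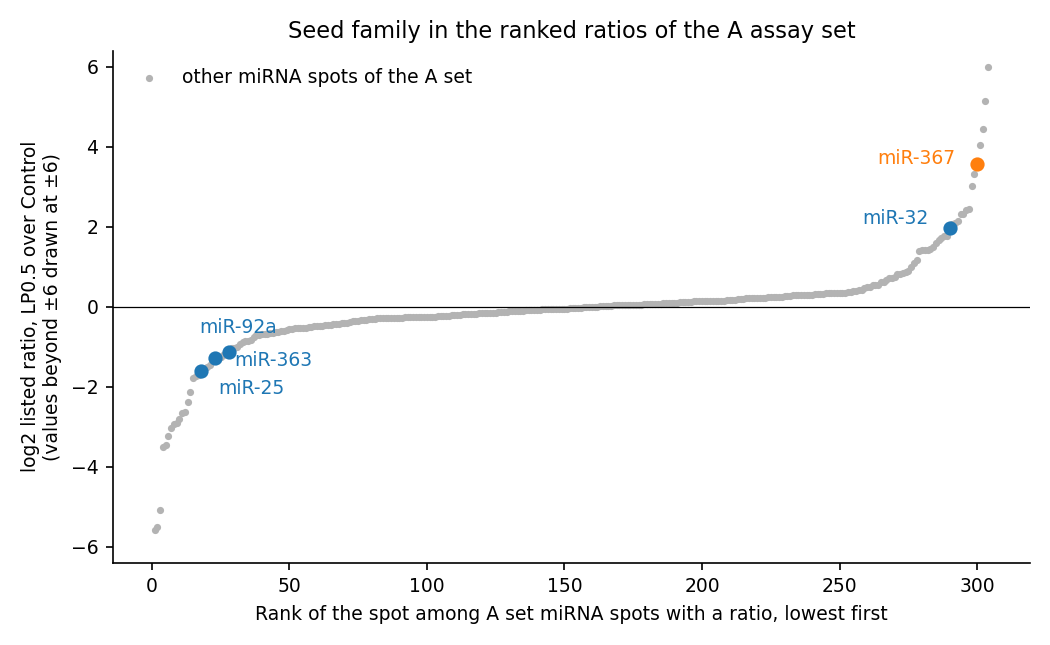
Log2 of the listed ratio (LP0.5 over Control) for each of the 304 A set miRNA spots with a value, in rank order; blue points are the 4 members and the orange point is miR-367, a further miRNA of the same seed. MiR-25, miR-363 and miR-92a sit together near the low end at -1.60, -1.28 and -1.12, and miR-32 sits near the high end at 1.96.

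MiR-367 carries the seed too but is made with the miR-302 miRNAs of pluripotent cells, and it was not counted as a member. The authors' deposited table lists it at 11.8, rank 5 from the highest in the A set. Of the 4 miR-302 assays of the main strand, those of miR-302a and miR-302b had a ratio, which the authors' deposited table puts at 2.63 and 0.106. MiR-302a and miR-302b thus lie on opposite sides of 1, so the ratio of miR-367 is not shared across its own cluster. The panel has no row under the name miR-92b.

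The distances of the members from 1 were set beside the gaps between assays of miRNA names that the panel measures with a pair of assays. Pairs were formed without regard to the species in the assay name, and most join an A set assay to a B set one. All 4 members are A set spots, so the gaps do not measure the error of their ratios. Among 38 such pairs the median gap was 1.31-fold, 9 pairs were more than 2-fold apart and the 95th percentile was 5.98-fold. MiR-92a is 2.17-fold from 1, and 9 of the 38 pairs had a gap at least as wide. MiR-363 is 2.43-fold from 1, with 7 pairs as wide or wider. For miR-25, at 3.04-fold, 5 pairs were as wide, and for miR-32, at 3.89-fold, 4 were. Each of the 4 members thus lies below the 95th percentile of these gaps, and only miR-367, at 11.8-fold with 1 pair as wide, lies above it. That 1 pair is miR-673, with a gap of 25.141 on the log2 scale, so the full range of gaps sets no useful limit. The pairs nearest the 95th percentile, miR-143 at 5.84-fold and miR-489 at 6.79-fold, each join an A set assay to a B set one. Of the pairs within the A set, which are few, the widest gap was 2.25-fold (miR-351). MiR-363, miR-25 and miR-32 lie farther from 1 than that, and miR-92a does not. Neither limit measures the error of a member's ratio. The 5 small RNA controls, each repeated over 16 spots, were tighter: over their 80 spots the 95th percentile of the distance to the median of the same control was 1.37-fold. All 4 members lie beyond that distance from 1. Repeat spots of a control do not measure the error of a ratio from a single spot, however. The controls also include U6, to which the listed values are relative. The exception among the controls was 1 U87 spot of the B set, at 0.133 in the authors' deposited table where the median of U87 in that set was 1.04, which is farther off than any member is from 1.

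**Figure D2:**
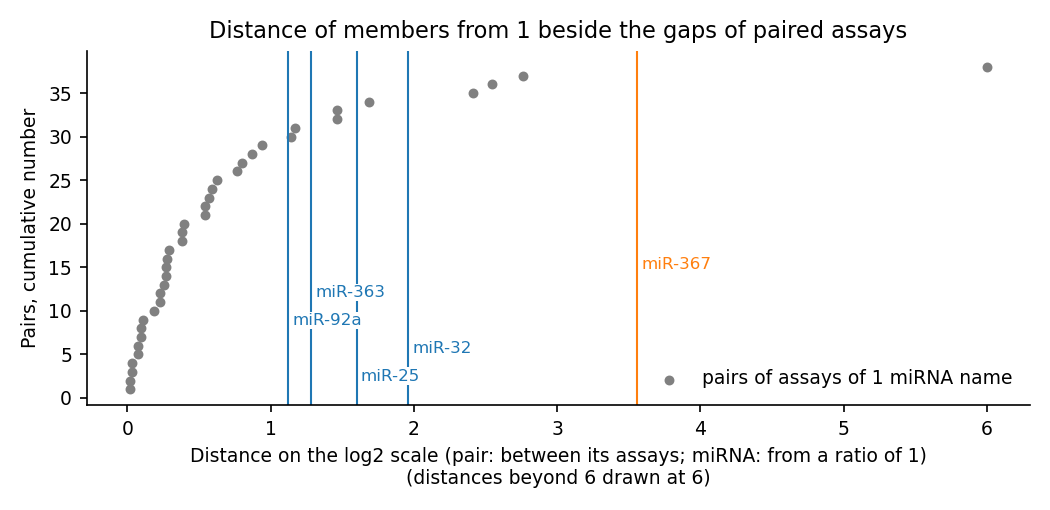
Grey points give the gap between paired assays of 1 miRNA name on the log2 scale, in rising order with the cumulative number of pairs on the y axis (38 pairs); vertical lines mark how far miR-92a, miR-363, miR-25 and miR-32 (blue) and miR-367 (orange) lie from a ratio of 1. The blue lines cross the upper part of the points, where 9 to 4 pairs have gaps as wide, and 1 pair reaches past the line of miR-367.

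A miRNA cluster is transcribed as 1 precursor, which allows a member to be set beside the neighbours it is transcribed with. In the miR-106b-25 cluster, which spans 498 bases, the authors' deposited table lists miR-106b at 0.902 and miR-93 at 0.921, both near 1, and miR-25 at 0.329. MiR-25 lay 2.77-fold below the median of these neighbours, a gap that 5 of the 38 assay pairs matched or passed. MiR-106b and miR-93 carry the miR-17 seed (AAAGUGC at bases 2 to 8) and restrain cell cycle inhibitors such as Cdkn1a. The listed ratio of miR-25 thus stood apart from those of the miRNAs it is transcribed with. That distance is below the 95th percentile of the gaps of all paired assays, 5.98-fold. It is above the widest gap of a pair within the A set, 2.25-fold. Neither limit measures the error of these ratios.

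In the miR-17/92a cluster, 836 bases long, miR-92a was the lowest of 6. From its 5′ end, the authors' deposited table lists miR-17 at 0.49 and miR-18a at 0.561, then miR-19a at 0.84, miR-20a at 0.957 and miR-19b at 0.917. MiR-92a, at 0.46 in the authors' deposited table, lay 1.82-fold below the median of its 5 neighbours, and 11 of 38 assay pairs had a gap as wide. MiR-17 and miR-18a at the 5′ end and miR-92a at the other end were each more than 1.5-fold below 1. MiR-19a, miR-20a and miR-19b, which lie between them, were closer to 1.

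In the X-linked miR-106a-363 cluster, 875 bases long, miR-363 was the lowest of the 5 miRNAs with a ratio when assays of 1 name were averaged. The authors' deposited table lists miR-106a at 0.873, no ratio for miR-18b, and miR-20b at 0.257 and 0.827 from a pair of assays. The lower miR-20b assay, in the B set, fell below miR-363 and the higher one, in the A set, above it, so the order of the cluster depends on which is taken. MiR-363, at 0.411 in the authors' deposited table, lay 2.12-fold below the median of its neighbours outside the family, and 9 of 38 assay pairs had a gap as wide. MiR-92a lay 1.9-fold below the same neighbours, with 10 pairs as wide.

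**Figure D3:**
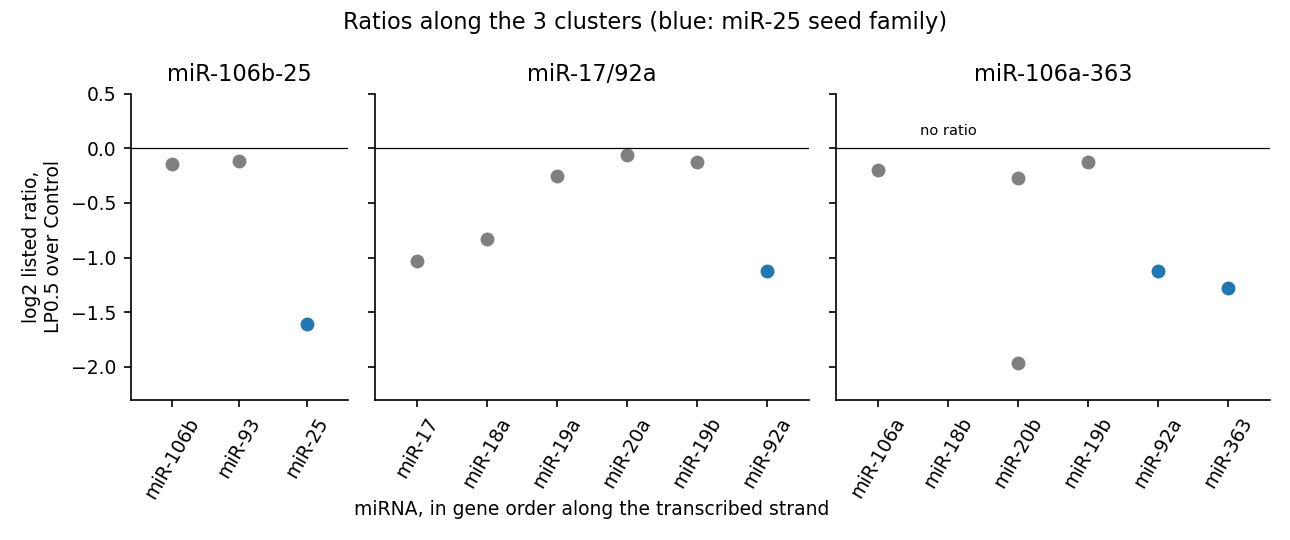
Log2 of the listed ratio (LP0.5 over Control) for each miRNA of the 3 clusters, in gene order along the transcribed strand; blue points are miR-25 seed family members, grey points their neighbours, and miR-20b has a point for each of its assays. The last miRNA of each cluster is a blue point at or below -1.12, while most grey points lie closer to 0.

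Set side by side by seed, with assays of 1 name averaged, the 9 neighbours with a ratio all stood below 1. They ran from 0.461 to 0.957 with a median of 0.873. The lowest is no listed value but the mean of the miR-20b assays at 0.257 and 0.827. The background is 278 of 566 miRNA spots below 1 (49.1%). At least 1.5-fold below 1 were 3 of these 9, beside 16.8% of the panel. Of the 6 miRNAs with the miR-17 seed, 2 were that far below 1 (miR-17 and, as the mean of its assays, miR-20b). The A set assay of miR-20b alone, at 0.827, is not that far below 1, so these counts depend on the B set assay. Of the miR-18 seed miR-18a was, and of the miR-19 seed neither was. The members of the miR-25 seed within the clusters were 3 of 3. Cluster mates share a transcript and the paralogs share sequence, so these values are not independent of one another.

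The other strands of the hairpins add little for the family itself. The panel has starred (minor strand) assays for miR-25, miR-92a and miR-363, and 0 of these 3 spots has a ratio. The neighbours' minor strands had a ratio at 6 of 10 spots. On the log2 scale, miR-106b# stands at 0.32 and miR-93# at 0.19 in the authors' deposited table, both above 1 where their main strands were below it. As ratios, the authors' deposited table gives miR-17# as 1.15, miR-20a# as 1.09, miR-18a# as 2.76 and miR-19a# as 0.628. For miR-106b, miR-93 and miR-20a both strands lie within 1.37-fold of 1, the 95th percentile distance of control spots from their median. The share of main and minor strands on opposite sides of 1 over the panel was not counted. Nothing is read from these sides. The starred assays all belong to the B set and the main strands to the A set, apart from 1 miR-20b assay. In the authors' deposited table the B set spots of ath-miR159a, a plant negative control, stand between 2.59 and 3.37, and its bearing on these strands was not tested.

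The spread of the 4 members was set beside miRNA groups that share a number and differ by a letter, or by having none. The groups were formed by name alone, and whether their names share a seed was not checked. The 4 members share a seed and not a number, so the definitions differ. In the A set 30 such groups of at least 2 names had ratios, and the median of their ranges was 0.37 on the log2 scale. The 4 members spanned 3.56, and 3 of the 30 groups were as wide or wider: miR-449 at 5.05, miR-302 at 4.63 and miR-466 at 3.75, each from 2 names. Without miR-32 the remaining 3 members spanned 0.49, and 11 of the 30 groups were as wide as that. Of these groups, 6 had at least 3 names, with a median range of 0.41. Among those 6, 0 were as wide as the 4 members and 2 as wide as the 3. A range grows with the number of names, and the comparison was made after the ratios were seen and has no test.

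The choice of reference moved the members little. The ratios of the 8 U6 spots of the A set have a mean log2 of 0, so the listed values are relative to U6. With a reference made of Y1, U87, snoRNA135 and snoRNA202, which shifts the A set by 0.197 on the log2 scale, miR-25 went to 0.287, miR-363 to 0.359, miR-92a to 0.402 and miR-32 to 3.39. With the median of all A set miRNA spots as the reference, the values were 0.337, 0.421, 0.472 and 3.98 in the same order. No member changed sides of 1 or came within 1.5-fold of it under these references or with snoRNA202 alone.

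**Figure D4:**
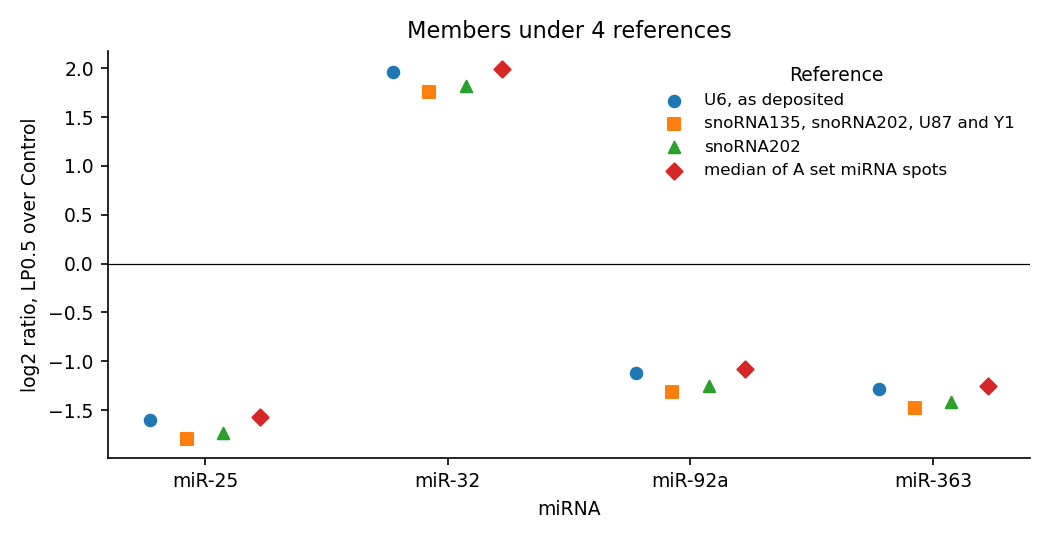
Log2 ratio (LP0.5 over Control) of each member under 4 references, as listed in the key. MiR-25, miR-92a and miR-363 stay between -1.80 and -1.08 and miR-32 between 1.76 and 1.99 under all 4.

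MiRNAs typical of islet cells and of other cells in an islet preparation gave the following ratios. The 6 listed islet endocrine miRNAs had a median ratio of 1.15, with miR-375, the main islet miRNA, at 1.17 in the authors' deposited table. The 4 exocrine miRNAs had a median of 0.958, the 2 endothelial ones 0.794 and the 6 blood cell ones 1.2, with a range from 0.305 to 1.78 for blood. The 5 miRNAs of fibroblasts and stellate cells ran from 0.403 to 2.66 around a median of 0.459, with 3 below 1 and 2 above. The median is the value of miR-143, the mean of a pair of assays 5.84-fold apart. The A set assay of miR-143 alone lies above 1, at 0.151 on the log2 scale. The others below 1 are both strands of miR-199a. Their part in the ratios of the family was not tested.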

How the data were processed

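Per the labels' protocols, RNA was assayed with FAM-labelled TaqMan probes. Per the file headers, the values deposited by the authors are linear ratios (fold) of L.05 to Control. The sources used here do not give the reference or how samples were averaged. The submitters' processing notes name limma, without a role. A second deposited table pairs spots with assay names. Its 12 per-sample columns match no sample label and entered no computation, so the planned limma test was not run. Threshold cycles and the depth behind a ratio were not analysed here.

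Ratios were taken to log2, and spots of 1 name were averaged on that scale. The members, lists, clusters and the 1.5-fold limit were chosen with earlier results of these data known. The rule for named miRNAs covers the 4 members, other miRNAs of the seed, starred strands, cluster neighbours and controls; cell type miRNAs are given by list; miR-302 miRNAs and groups sharing a number were added after their values were seen. Sequences, gene order and coordinates come from RefSeq tables of GRCm38.p6; the deposited files name no build. The rescaling was tested on simulated data. Python 3.11.15, numpy 2.4.6, pandas 2.3.3 and matplotlib 3.10.9 were used.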

Additional observations from a re-analysis of the deposited data

Results flagged for a closer look

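A plant assay outside the main measurement gave a signal. The panel carries ath-miR159a, a plant miRNA with no mouse gene, at 8 spots of the A set, where the 4 members are assayed too. A ratio was given for 2 of them, 0.139 and 1.96 as listed by the authors' deposited table. The B set has ratios for all 8 of its plant spots, from 2.59 to 3.37 with a median of 3.01. The ratios of miR-25, miR-92a and miR-363 lie within the span of the A set pair, and miR-32 lies above it.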

How the results depend on the processing

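Under 3 other references, and 1 added after seeing the data that leaves out a single U87 spot, each member kept its side of 1 and moved by less than 0.27 on the log2 scale, the mean SD of repeated control spots. That U87 spot is in the B set, so leaving it out did not alter the A set values. The number of members at least 1.5-fold below 1 was 3 under every reference and at the lower and the higher fold limit run. The A set shifts, 0.197 at the widest, are too small to change that count, and these 3 deposited ratios all lie more than 2-fold below 1. The count is therefore no check on the ratios. The median log2 ratio ran from -1.40 to -1.12, the latter with miR-367 included. A change of reference moves all 4 members by the same amount, since they share an assay set. No paired analysis was possible because the sample columns were matched to no label; for that reason the limma alternatives and leaving out replicates were not run.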
